A study of Homo sapiens with 8 samples.

Results

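*LOXL2* genome editing in A549 cells, a human lung adenocarcinoma cell line, was measured on 3 of the 8 dual-channel Agilent expression arrays of the series, chosen by their labels. On each, RNA of A549 cells labeled as *LOXL2* knocked down by CRISPR/Cas9 editing (GE1, GE2 and GE3) carried Cy5, and RNA of A549 cells without editing carried Cy3. The other arrays compared *miR-150-3p* transfection with control in squamous cell lines (2 arrays) and siRNAs against *DONSON* with control in SBC-3 cells (3 arrays), again with the treated RNA in Cy5. The labels give no treatment time, guide or cut site, and do not say whether GE1 to GE3 are clones, pools or separate cultures, or whether the control was the same RNA on each array. The p-values rest on a spread shared by all 8 arrays, and whether the spread between the 3 A549 arrays is technical is not known.

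LOXL2 is a secreted amine oxidase of the lysyl oxidase family that needs copper. The family oxidizes lysines of collagen and elastin, which then form the covalent cross-links that stiffen the matrix, and LOXL2 cross-links collagen IV of basement membranes. In carcinoma cells LOXL2 has been studied for its part in invasion and in the loss of epithelial features.

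Values are log2 ratios of the edited over the unedited channel, so a value of -1 is a level of 50% of the unedited cells. A gene was called when limma's adjusted p was under 0.05, and "changed in all 3" when it was also at least 1 from 0, in the same direction, on each array. Of 15531 genes tested, 14.4% were called in either direction, 6.77% lower and 7.58% higher. Lower in all 3 were 177 genes (1.14%) and higher in all 3 were 175 (1.13%). These shares are the background for the counts below. Both channels were well above background on every array for 121 of those lower and 91 of those higher in all 3. With another background correction and dye normalization together (normexp with an offset, then loess), 34 genes were lower and 30 higher in all 3. Without GE1, GE2 or GE3, 588, 470 and 579 of the genes were called, against 2229 with all arrays.

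*LOXL2* was read by 1 probe, well above background in both channels. Its log2 ratio was -2.49 on GE1, -2.67 on GE2 and -2.59 on GE3, with signals of about 9908 in the unedited and 1655 in the edited channel, so that *LOXL2* was lower on each array. Where the probe lies relative to the cut is not given, and editing need not lower the RNA. The other family members did not pass the test. *LOXL3* was at -0.42, -0.38 and -0.89 (adjusted p = 0.0836) and *LOXL1* at -0.42, -0.51 and -1.57 (adjusted p = 0.0708). *LOXL4* was at 0.28, 0.49 and -0.36 (adjusted p = 0.69), and *LOX* was not counted on all 3 arrays. The antisense transcript *LOXL2-AS1* was at -0.11, -0.00 and 0.03.

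Among genes lower in all 3 and well above background in both channels, *CEACAM6*, a cell surface adhesion glycoprotein, had the lowest mean, at -6.90 on GE1, -4.48 on GE2 and -6.96 on GE3. GE2 stood apart from the other arrays there, but was still far below 0. *DPYSL3*, a cytoskeletal phosphoprotein, was at -4.33, -4.46 and -4.88. *ACKR3*, a scavenger receptor for the chemokine CXCL12, was at -4.64, -3.56 and -4.41. *PXDN*, the peroxidase that forms sulfilimine cross-links in collagen IV, was at -3.35, -4.37 and -3.61, with 2 probes that differed by 0.05.

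*CPS1*, the first enzyme of the urea cycle, was at -3.66, -3.20 and -3.97, which is 12.2-fold lower in the mean (adjusted p = 0.000261). *PDK4*, which inhibits pyruvate dehydrogenase, was at -2.82, -3.07 and -3.52. *G0S2*, an inhibitor of triglyceride lipase, was at -3.63, -2.47 and -3.71. All 3 arrays were below -2 for each of these genes. *SCARA5*, a ferritin receptor, was at -3.32, -3.08 and -3.34, and *NTRK3*, the neurotrophin-3 receptor, at -2.93, -2.74 and -2.87. The 3 *NTRK3* probes ranged over 1.80 and were all lower. The cancer/testis genes *MAGEA12* and *CSAG1* had means of -3.87 ± 0.24 and -2.92 ± 0.17 (SD, n = 3), and *MAGEA12* has near-identical paralogs that its probe may also read. *LINC02582*, *TMTC2* and *NIBAN1* completed the 15 lowest, with means of -3.57, -2.77 and -2.70. All 15 were still called with normexp and loess, with means closer to 0: *CEACAM6* had -3.08, *DPYSL3* -3.26, *PXDN* -1.55, *CPS1* -1.92, *G0S2* -0.92 and *CSAG1* -0.53.

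*FOXQ1*, a forkhead transcription factor, had the highest mean among genes higher in all 3 and well above background in both channels, and was at 3.35, 3.77 and 3.10, which is 10.6-fold higher in the mean (adjusted p = 0.00303). *LHFPL4*, a partner of GABA-A receptors, was at 3.27, 3.03 and 3.14. *DIO2*, which activates thyroid hormone, was at 3.09, 3.23 and 2.69. All 3 arrays were above 2.6 for these genes. *RHOV*, a small GTPase, spread more, at 1.52, 2.64 and 1.87. *IL11*, a cytokine that signals through gp130, was at 2.10, 2.48 and 2.09 with bright signals of 1502 in the unedited and 7021 in the edited channel. *WNT6*, a WNT ligand, was at 3.07, 2.29 and 1.65. *CDKN1C*, an inhibitor of cyclin-dependent kinases, was at 2.49, 2.45 and 1.94. GE3 was the lowest array for both of these. *NR4A3*, an orphan nuclear receptor, had a mean of 2.30 ± 0.54 and *SLPI*, a secreted protease inhibitor, of 2.15 ± 0.52. *MAP3K8*, a kinase upstream of ERK, had a mean of 1.96 ± 0.06 (SD, n = 3). The others of the 15 were *TMEM190*, *SERTAD4-AS1*, *ATL1*, *SULT2B1* and *VTN*, with means of 2.52, 2.28, 2.14, 2.08 and 2.06. The means of the 15 with normexp and loess ran from 0.90 for *WNT6* to 2.93 for *FOXQ1*.

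**Figure D1:**
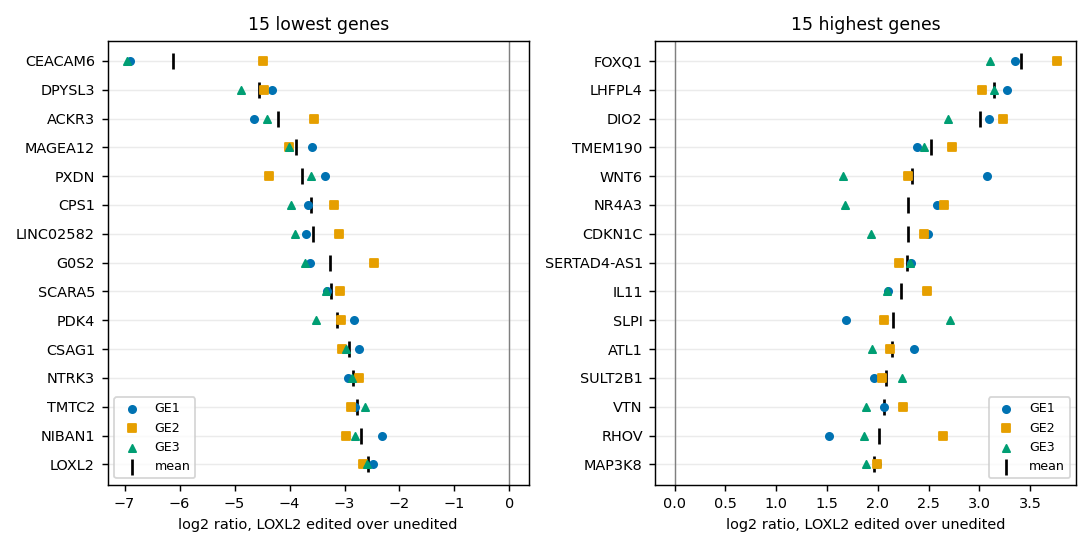
Log2 ratio of the edited over the unedited channel (x axis) on the arrays of GE1, GE2 and GE3 (points) with their mean (bar) for the 15 lowest and 15 highest genes (y axis) that were changed in all 3 and well above background in both channels. No point of the lower genes lies above -2.32 and none of the higher genes below 1.52.

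Other genes could be given only as bounds, because 1 channel was not well above background on any array. Of the genes lower in all 3, 28 were dim in the edited channel. *GPC6*, a glypican of the cell surface, was at least 11.1-fold lower, and *ANKRD30A* at least 10.8-fold lower. The 2 probes of *GPC6* differed by 4.16 on the log2 scale, those of *ANKRD30A* by 3.81, and all were lower. *KCNQ5-IT1* was at least 10.5-fold, *LHX8*, a LIM homeobox factor, at least 6.65-fold and *HTR2B*, a serotonin receptor, at least 4.96-fold lower. Of the genes higher in all 3, 65 were dim in the unedited channel. For some of these the bound was below 1, down to 0.61 for *OR2B6*, so that it shows no rise. *GTF2I-AS1* was at least 9.44-fold higher, *PCSK1*, a prohormone convertase, at least 2.76-fold, *LY96*, a co-receptor of TLR4, at least 2.32-fold, *SLC25A27*, a mitochondrial carrier, at least 2.08-fold and *THRB*, a thyroid hormone receptor, at least 1.87-fold higher. With normexp and loess, *PCSK1*, *LY96* and *THRB* did not pass the test (adjusted p = 0.0542, 0.229 and 0.0505).

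Genes of the matrix on which LOXL2 acts were called in both directions. Of 20 collagens tested, 8 were called higher and 1 lower, with a median of 0.64 against 0.02 over all genes. *COL12A1*, a fibril-associated collagen, was at 1.66, 1.77 and 2.22. Its probe above background in both channels had a mean of 1.62. Its other probe, not above background in the unedited channel, had a mean of 2.14. *COL4A1*, a chain of basement membrane collagen IV, had a mean of 1.42 ± 0.44 (SD, n = 3), and *COL4A4*, another such chain, was at 1.38, 1.65 and 1.46. All 3 arrays were above 0 for each. Of members chosen after their values were seen, *COL5A1*, a regulator of fibril assembly, was at 1.23, 1.33 and 1.34, *COL4A2* had a mean of 1.10 and *COL18A1* of 1.03. *COL1A1* was at 0.82, 1.01 and 1.89 and did not pass the test (adjusted p = 0.0775). *COL21A1*, at -1.24, -2.30 and -0.79, was the collagen called lower. Its signal was low (21.3 in the edited channel, above background there on 2 arrays), and its adjusted p by limma reached 0.151 over the alternatives run. The number of collagens called was 6 without GE1, 4 without GE2 and 4 without GE3.

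Of 19 enzymes that modify and fold collagen, 2 were lower and 1 was higher (15.8% called, against 14.4% of all genes). *TGM2*, a transglutaminase that cross-links matrix proteins, was at 1.73, 1.69 and 1.36, and *P3H2* and *P3H3*, prolyl hydroxylases, had means of -0.45 and -0.63. The calls in this list numbered 1, 2 and 1 without GE1, GE2 or GE3, and 6 with normexp and loess. Of 9 laminins tested, 3 were lower and 2 higher. *LAMB3*, a chain of an epithelial laminin, was at -1.11, -1.05 and -1.45. *LAMC3* had a mean of -1.12, whereas *LAMA5*, the alpha chain of a widespread laminin, rose to a mean of 0.69. Of 15 integrins, 3 were called, all lower. They were *ITGA6* (mean -0.86 ± 0.12) and *ITGB4* (mean -1.29 ± 0.29), the subunits of the integrin that binds laminin in hemidesmosomes, and *ITGA10* (mean -0.69). Without any 1 array, 2 laminins were called, and without GE2, 1 integrin was.

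Among elastic fiber and matrix glycoproteins, 5 of 30 were lower and 4 higher. *VCAN*, a large proteoglycan, was at -3.23, -3.66 and -4.38, with the edited channel above background on 2 arrays. *FN1*, fibronectin, was at -1.94, -1.98 and -1.20, and *NID1*, which bridges laminin and collagen IV, at -2.84, -1.86 and -0.97. The arrays spread more for *NID1* than for *FN1*. *VTN*, vitronectin, was higher, as given above. Of 21 metalloproteinases and their inhibitors, 3 (14.3%, against 14.4% of all genes) were called, all lower, with a list median of 0.18. These were *MMP7*, a protease of epithelia, at -2.01, -2.12 and -1.67, *ADAMTS9*, at least 4.53-fold lower, and *ADAM17*, a sheddase, with a mean of -0.54. Without GE1 or GE2, 0 of these were called (limma). Of the matrix glycoproteins, 5, 3 and 4 were called without GE1, GE2 or GE3. Of 8 members of the plasminogen activator system and 15 genes of copper handling, 0 were called by limma, and 0 and 3 had an unadjusted p under 0.05.

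Of 25 NF-kB and inflammatory genes, 12 were lower, 7 of them in all 3, and 2 were higher, with a median of -0.23. *CCL2*, which attracts monocytes, was at -2.02, -1.92 and -2.14, and *CXCL1*, which attracts neutrophils, at -2.11, -2.22 and -1.63. The neutrophil attractants *CXCL2*, *CXCL3* and *CXCL5*, chosen after their values were seen, had means of -1.31, -1.80 and -1.25, and *PTGS2*, the inducible cyclooxygenase, had a mean of -1.52. All 3 arrays were below -1 for each of these genes. The factors *RELB* and *NFKB2* had means of -0.91 and -0.71. The higher members were both cytokines of the gp130 family, *IL11* and *IL6*. *IL6* was at 2.55, 3.15 and 2.05, was not above background in the unedited channel, and was at least 2.82-fold higher. With normexp and loess its adjusted p was 0.481. Of the list, 6, 5 and 6 genes were called without GE1, GE2 or GE3. Interferon response genes had 2 lower and 5 higher of 36: *IFIT1*, an antiviral RNA-binding protein, had a mean of 1.61 ± 0.12 and *ISG15* of 0.80, while *OAS1*, an RNA sensor, had a mean of -1.30 ± 0.37. Without GE1, GE2 or GE3, 3, 2 and 3 of them were called.

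Of 26 genes that respond to MAPK signaling, 11 were lower and 1 higher, with a median of -0.58, and 22 were below 0. *SPRY2*, a feedback inhibitor of the pathway, was at -1.49, -1.31 and -1.44, and *FOSL1*, an AP-1 subunit, at -1.20, -1.41 and -1.49. *EGR1*, an immediate early factor, was at -1.14, -1.37 and -1.56, at a low edited signal of 40.6. *SPRY1* had a mean of -0.96. All 3 arrays were below 0 for each. The member called higher was *DUSP5*, an ERK phosphatase, with a mean of 0.72 ± 0.04. The calls in this list numbered 7 without GE1, 4 without GE2 and 5 without GE3. Among receptor tyrosine kinases and ligands, 7 of 29 were lower and 2 higher. *ROR1*, a WNT5A receptor, was at -1.72, -1.49 and -1.41, and *MERTK* had a mean of -0.89. *INSR*, the insulin receptor, rose to a mean of 0.80. *EPHA4* had a mean of -0.91 at low signals of 18.9 in the edited and 35.4 in the unedited channel. Over the alternatives run its mean ranged from -1.14 to -0.09, with an adjusted p by limma of up to 0.303. Without GE1, GE2 or GE3, 3, 1 and 2 genes of this list were called.

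**Figure D2:**
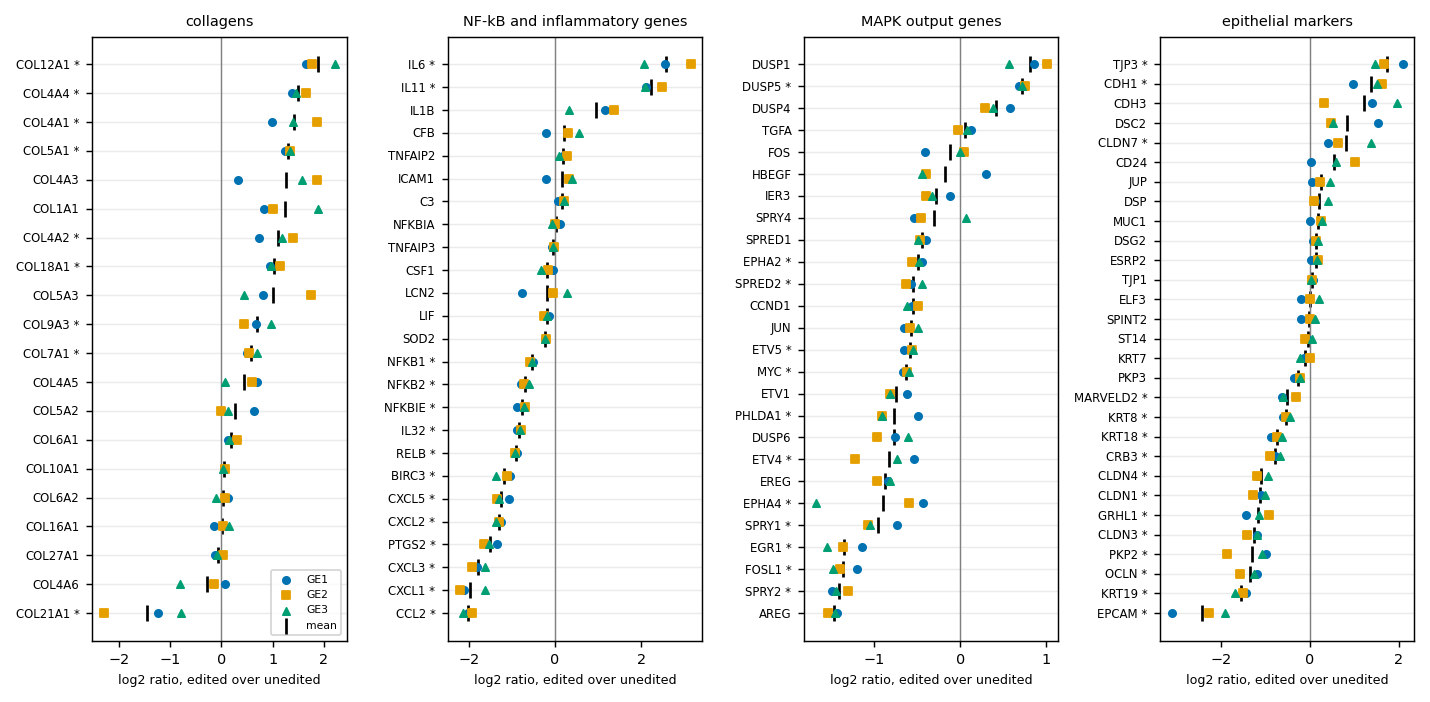
Log2 ratio of the edited over the unedited channel (x axis) on each array (points) with the mean (bar) for the tested members of 4 gene lists (y axis). An asterisk marks genes called by limma. The collagens lie mostly to the right of 0 (median 0.64) and the MAPK output genes mostly to the left (median -0.58).

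Of 29 epithelial markers, 12 were lower and 3 higher, with a median of -0.04. In bulk RNA, fewer cells of a kind and less RNA per cell cannot be told apart. *EPCAM*, an epithelial adhesion molecule, was at -3.11, -2.27 and -1.90, and *KRT19*, a keratin, at -1.42, -1.50 and -1.68. Keratins have many processed pseudogenes that a probe may also read. The tight junction genes *CLDN1*, *CLDN3* and *OCLN*, chosen after their values were seen, had means of -1.12, -1.26 and -1.33. The claudin *CLDN7* went the other way, with means from 0.16 to 1.36 over the alternatives run, and did not pass the test in all of them. *CDH1*, E-cadherin, was also higher, at 0.97, 1.61 and 1.51. The junction scaffold *TJP3* was not above background in the unedited channel, and its bound of at least 0.942-fold shows no rise. It did not pass the test with normexp and loess (adjusted p = 0.131). Without GE1, GE2 or GE3, 10, 7 and 8 epithelial markers were called. Mesenchymal markers had 2 lower (*FN1* and *NT5E*) and 3 higher of 19, with a median of -0.27 and 14 below 0. *SNAI1*, a repressor of *CDH1*, was at 1.11, 1.28 and 1.12, and *ACTA2*, smooth muscle actin, had a mean of 0.92. Without any 1 array, 3 mesenchymal markers were called, and with normexp and loess 9 were.

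The A549 label was checked against genes known to be high in this line. Of 13 tested, 9 did not pass the test, among them *AKR1C1* and *ALDH1A1*, and all were well above background. The other 4 were called lower, and the list had a median of -0.46. Not passing does not show that a gene was unchanged, and a ratio of edited over unedited cells does not test the line itself. Apart from *EPCAM* and *KRT19*, *KRT18* and *KRT8* were lower, with means of -0.75 and -0.53. Of 15 club, goblet and ciliated cell markers, 5 were called, all lower, with *TPPP3*, a tubulin-binding protein, at -1.57 ± 0.13 and *TFF1*, a trefoil peptide, at -1.43 ± 0.21 (SD, n = 3). Alveolar type 2 markers had 1 lower and 3 higher of 12. Leaving out GE1, GE2 or GE3 left 2, 2 and 3 calls in the former list and 1 each in the latter. Of 12 immune and endothelial markers 4 were counted, and of 11 fibroblast markers also 4. Of these, 0 and 1 were called by limma, 1 of the former had an unadjusted p under 0.05, and their part in the results was not tested.

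Of 43 S phase genes and 51 G2/M genes, 0 were called by limma, with values between -0.66 and 0.66, and 2 and 3 had an unadjusted p under 0.05. With the spread of the 3 arrays alone, 20 and 21 of them were called, as were 5873 of all genes. The shared spread also holds differences between the squamous cell lines and between the *DONSON* siRNAs. Having 0 calls therefore does not show that these genes were unchanged. Of 44 replication-dependent histones, 1 was lower and 2 were higher, and 0, 0 and 1 were called without GE1, GE2 or GE3, against 7 with normexp and loess. Of 31 p53 targets, 2 were lower and 4 higher, with *CDKN1A*, an inhibitor of cyclin-dependent kinases, at 0.98, 0.89 and 0.96. Of 32 genes of cholesterol and fatty acid synthesis, 6 were called, all higher. *SCD*, a fatty acid desaturase, had a mean of 0.91 and *LSS*, lanosterol synthase, of 0.82. The brighter *LSS* probe was at a mean of 0.41 and the dimmer at 1.23. Without any 1 array, 0 genes of the cholesterol list and 0 p53 targets were called. Of 34 ATF4 and unfolded protein response genes, 4 were lower, all of serine and one-carbon metabolism: *PHGDH* (mean -1.30), *MTHFD2* (-1.17), *SHMT2* (-0.82) and *PSAT1* (-0.74). None of these differed by limma from the *DONSON* arrays, where *PHGDH* was at -0.46, *MTHFD2* at -0.28, *SHMT2* at -0.68 and *PSAT1* at -0.69 (adjusted p of the difference = 0.0847, 0.19, 0.645 and 0.926). YAP and TEAD targets had 4 lower and 2 higher of 21, with *ANKRD1* at least 8.65-fold lower and *TGFB2* at a mean of 1.10. TGF-beta pathway genes had 2 lower and 3 higher of 29, with *ID2*, an inhibitor of helix-loop-helix factors, at -1.72, -1.56 and -1.72 and *PMEPA1*, a feedback inhibitor, at 0.73, 0.93 and 1.13. Leaving out GE1, GE2 or GE3 left 2, 1 and 2 calls in the ATF4 list, 4, 1 and 2 in the YAP list and 4, 2 and 3 in the TGF-beta list. Called with all arrays were 11.8% of the ATF4 list and 17.2% of the TGF-beta list, against 14.4% of all genes.

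Regulators of cell death were called in both directions, with 3 lower and 3 higher of 23. *BCL2L11*, which encodes the pro-apoptotic BIM, was at 1.16, 1.53 and 1.34, and its 3 probes ranged over 1.31 and were all higher. *BIRC3*, an inhibitor of apoptosis, was at -1.05, -1.12 and -1.37. All 3 arrays were past 1 for both genes. Of 31 NRF2 targets, 3 were lower and 1 higher. *GPX2*, a glutathione peroxidase, spread widely, at -2.63, -1.92 and -0.99, and *GCLC*, which makes glutathione, had a mean of -0.81. Hypoxia and glycolysis genes had 1 lower and 4 higher of 36. *HK2*, a hexokinase, was at -1.10, -1.94 and -2.12, with an adjusted p of 0.145 under normexp and loess, and *PFKFB4*, a regulator of glycolysis, was at 1.01, 1.10 and 1.27. WNT pathway genes had 2 lower and 1 higher of 19, with *FZD6*, a WNT receptor, at a mean of -0.62. Leaving out GE1, GE2 or GE3 left 3 calls each in the apoptosis list, 1, 0 and 1 in the NRF2 list, 2, 3 and 2 in the hypoxia list and 0, 1 and 0 in the WNT list. The shares called in the NRF2, hypoxia and WNT lists (12.9%, 13.9% and 15.8%) were near the 14.4% of all genes.

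Of 19 aldo-keto and aldehyde metabolism genes and 7 metallothioneins, 0 were called by limma, and 5 and 1 had an unadjusted p under 0.05. Of 41 cytosolic ribosomal protein genes, 1 was lower and 2 were higher, and 0 were called without any 1 array, against 11 with normexp and loess. Among 15 common reference genes 3 were called, all lower, among them *YWHAZ* (mean -0.55) and *TBP* (-0.37). Without any 1 array, 0 reference genes were called.

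**Figure D3:**
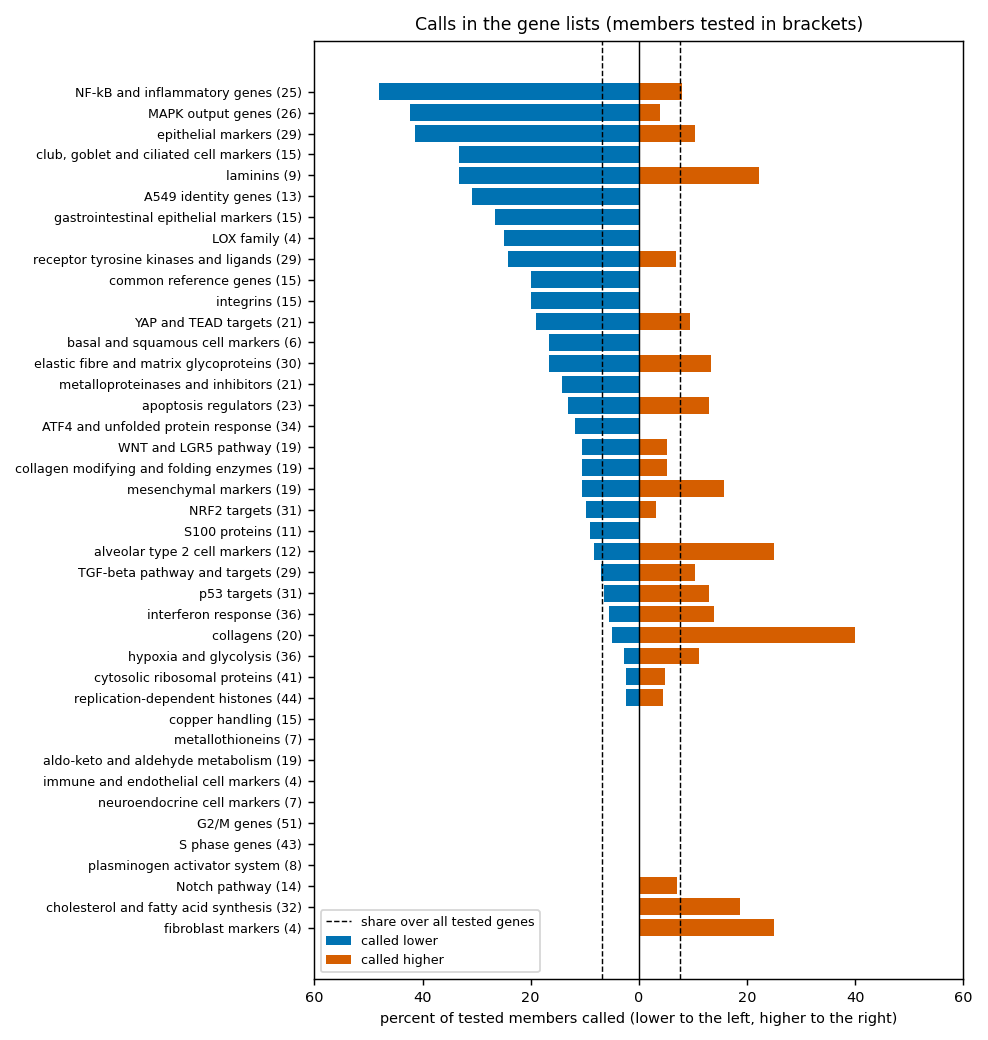
Percent of the tested members of each gene list (y axis, number tested in brackets) that were called lower (bars to the left) or higher (bars to the right), with dashed lines at the shares over all tested genes (6.77% and 7.58%). NF-kB and inflammatory genes had the longest bar to the left (12 of 25) and collagens the longest to the right (8 of 20).

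Values also differed between the 3 arrays. Of 12746 genes well above background in both channels on all 3 arrays, 182 (1.43%) had values at least 1 apart, and for 112 of these GE1 was the array farthest from the other two, against 29 for GE2 and 41 for GE3. The widest range was that of *LGALS2*, a galectin of the gut, which was at -2.51 on GE1, 0.76 on GE2 and 1.38 on GE3. *TM4SF5*, a tetraspanin-like protein, was at -1.12, 2.26 and 2.43, and its relative *TM4SF20* at -2.44, 0.50 and 0.57. *FGB*, a fibrinogen chain, was at -2.73, -0.50 and 0.28. GE1 was the lowest array for each of these, whereas for *LAYN*, a hyaluronan receptor, it was the highest, at 0.17 against -2.59 and -1.22.

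The list of gastrointestinal epithelial markers showed both patterns. Of 15 tested, 4 were called, all lower: *CPS1*, *FOXA1*, a pioneer factor, at -1.76, -1.77 and -1.26, *CDX2*, an intestinal factor, with a mean of -1.09, and *AFP*, with a mean of -0.73. Leaving out GE1, GE2 or GE3 left 2, 1 and 2 of these calls. Others were low mainly on GE1, and these were chosen after their values were seen. *APOH* was at -2.44, -0.92 and -0.37, and *TM4SF4* at -2.64, -0.40 and -0.11. Whether GE1 to GE3 are separate lines is not given, and a difference between single arrays has no replicate and was not tested.

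**Figure D4:**
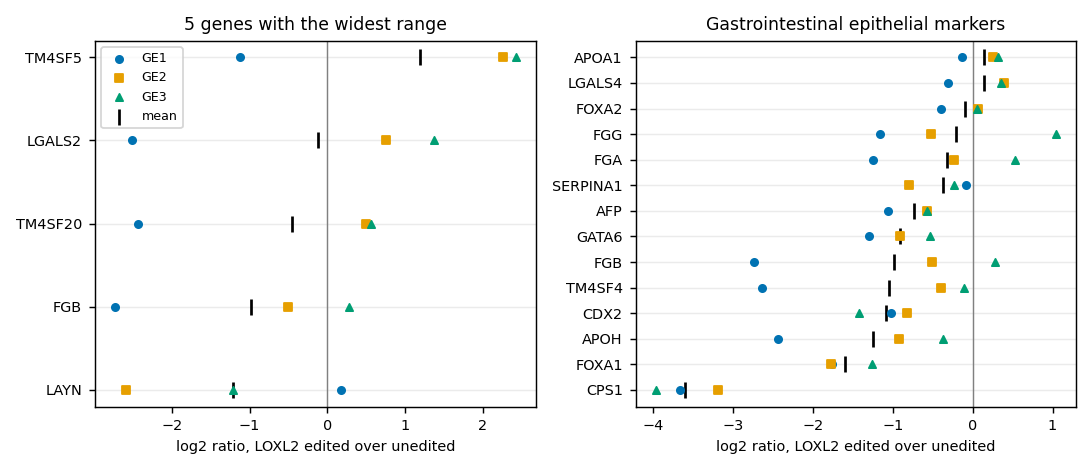
Log2 ratio of the edited over the unedited channel (x axis) on each array (points) with the mean (bar) for the 5 genes with the widest range over GE1 to GE3 and for gastrointestinal epithelial markers that are reported here. The GE1 point lies apart on the left for *LGALS2*, *TM4SF20*, *FGB*, *TM4SF4* and *APOH*.

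The *DONSON* arrays had the same dye orientation and the same slide, but another cell line. In a contrast of both groups, 7.29% of 13656 genes were called. Of the genes changed in all 3, 89 lower and 101 higher ones had values there, and 68 and 72 of them also differed from the *DONSON* arrays. These counts use the same *LOXL2* arrays as the choice of genes. *CPS1* had a mean of -3.61 against -0.04 in the *DONSON* arrays (adjusted p of the difference = 0.0019), *VCAN* -3.76 against 0.22 (0.00225) and *CXCL1* -1.98 against 0.17 (0.00568). *COL12A1* had 1.88 against -0.15 (adjusted p = 0.00723), and the 1.88 includes the probe that was dim in the unedited channel. *MMP7* and *SPRY2* went in opposite directions, at -1.94 against 1.86 (adjusted p = 0.00565) and -1.41 against 0.85 (adjusted p = 0.00107). Other genes had like values in both groups. *KRT19* had -1.54 against -1.39 (adjusted p = 0.658) and *CDKN1A* 0.94 against 0.85 (adjusted p = 0.856). Without a dye swap, a dye bias of these probes and a difference of the edited cells cannot be told apart.

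Genes that lie next to each other on a chromosome shifted together over long stretches. The median of 25 neighboring genes in RefSeq order was followed along each chromosome. Windows at least 0.3 from the median of all genes were joined into stretches where they overlapped. A stretch can therefore also hold windows that lie nearer to that median. As the values chose the stretches, they carry no test. On chromosome 2, 307 tested genes from *WDR35* to *LBX2* had a median of -0.31, with medians of -0.32 on GE1, GE2 and GE3 and 0.03 in the *DONSON* arrays. Shorter stretches on either side, from *SH3YL1* and to *ANKRD20A8P*, had medians of -0.32 and -0.29. On chromosome 8, 215 genes from *CA2* to *RECQL4* had a median of -0.44, a level of 0.735 of the unedited cells, and 100 of them were called lower. It was -0.42, -0.44 and -0.43 on the 3 arrays and 0.06 in the *DONSON* arrays. The lowest window there, from *SLC25A32* to *MTBP*, was at -0.66. A stretch that begins before *CA2*, 88 genes from *TMEM68* to *TMEM64*, was shifted the other way, to a median of 0.35. It overlaps the start of the lower stretch, and the genes in the overlap are counted in both.

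On chromosome 12, 6 stretches were lower, the longest with 121 genes from *H2AJ* to *LMBR1L* at -0.29. On chromosome 20, stretches were higher, with 70 genes from *POFUT1* to *BLCAP* at 0.39 and 80 genes from *FAM210B* to *UCKL1* at 0.36. Of 446 genes tested on chromosome 20, 28.5% were called higher and 2.02% lower. The highest window of all, 25 genes from *PCDHA1* to *PCDHGA8* on chromosome 5, was at 0.95. The alpha and gamma protocadherin genes share exons within their own cluster, so that their probes may not be independent. *PCDHA1*, *PCDHA3* and *PCDHA12* were not well above background in the unedited channel on any array. Their bounds were at least 1.01-fold, 3.06-fold and 2.36-fold higher. Together, the lower stretches held 6.18% of the tested genes and 27.8% of those called lower, and the higher stretches held 3.53% and 14.8% of those called higher. Outside all stretches 749 genes were called lower and 967 higher.

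Several genes named above, or members of the lists, lie in such stretches. *EPCAM*, *PXDN*, *ID2*, *MTHFD2*, *HK2*, *LOXL3* and *ADAM17* are in the lower stretches of chromosome 2. Those of chromosome 12 hold *TMTC2* and *SHMT2*. *MYC*, the matrilin gene *MATN2* and the reference gene *YWHAZ* are in that of chromosome 8, with means of -0.63, -1.49 and -0.55. *FZD6* is also in that lower stretch, and *LY96* is in the higher stretch of chromosome 8. *SNAI1*, *SLPI*, *LAMA5*, *PMEPA1* and *COL9A3* are in the higher stretches of chromosome 20. In all, 22 of 156 called members of the lists lie in a stretch. Over all placed genes the shares were larger. Of 1051 genes called lower, 292 lie in a lower stretch, and of 1177 called higher, 174 lie in a higher one. *LOXL2*, on another part of chromosome 8, does not, and the 25 genes around it had a median of 0.02. Of these neighbors, *NEFL* (mean -1.64) and *TNFRSF10C* (mean -1.39) were lower and *STC1* (mean 0.97) and *RHOBTB2* (mean 0.93) were higher. With normexp and loess *TNFRSF10C* was at -0.13 and *STC1* at 0.08, and neither passed the test (adjusted p = 0.149 and 0.348). *STC1* and *RHOBTB2* also did not pass it when GE1, GE2 or GE3 was left out. The part of position in any of these results was not tested.

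**Figure D5:**
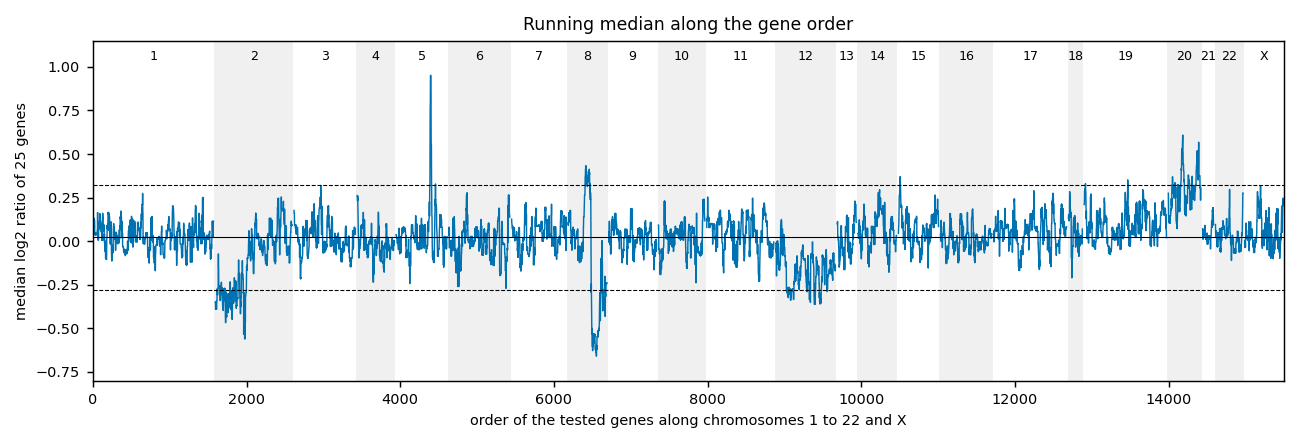
Median log2 ratio (edited over unedited) of 25 neighboring genes (y axis) along the order of the tested genes on chromosomes 1 to 22 and X (x axis, chromosome names above). The solid line is the median of all genes and dashed lines lie 0.3 from it. Long runs near or below the lower dashed line are seen on chromosomes 2 and 8 (medians of the longest stretches -0.31 and -0.44), and runs above the upper line on chromosome 20.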

How the data were processed

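Before deposit, the authors' Feature Extraction software had subtracted the background from the intensities of each channel and normalized the dyes within each array. The deposited files also hold the log10 ratio of red over green. A deposited table of the series holds the same log10 ratios. Log2 ratios were computed from the processed intensities. Control and outlier spots (100 to 116 per array) were left out, and a probe was counted with 1 channel or both well above background. Per array, 31587 to 31787 probes were counted, with red well above background at 55.9% to 56.2% of spots and green at 45.2% to 45.5%. Probes were averaged per gene. Names came from RefSeq accessions, of which 24782 of 50096 matched. The files use genome build hg19 and the RefSeq table GRCh38.p14, so that only names and gene order were used.

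limma 3.58.1 in R 4.3.3 fitted the 3 groups to all 8 arrays, which then share their spread. That spread also holds the differences between the squamous cell lines and between the *DONSON* siRNAs. A gene without a value on another group's array was fitted without that array. Each mean was tested against 0 with Benjamini-Hochberg adjustment over 15531 genes. With no dye swap, gene-specific dye bias was not removed, and all arrays were on 1 slide in 1 scan. If the control was the same RNA throughout, its own spread is left out. The number of arrays limits the precision. Over genes, pairs of the 3 arrays correlated at r = 0.75 to 0.80. A bound sets the bright channel against, per array, the higher of the lowest signal among probes well above background and the dim probe's own signal.

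The genes and lists were chosen with earlier results of these data known. Named genes were *LOXL2* and its family, the 15 lowest and highest means among genes changed in all 3 with both channels well above background, the 5 lowest and highest means among those with 1 channel below it on every array (given as bounds), up to 4 called genes per list with the largest change, and the 5 widest ranges. Transcripts without a gene name were not named. Other names were chosen after their values were seen. The alternative with normexp and then loess used median spot signals, because the files hold no mean signals, with an offset of 50. The fit was tested on simulated data. Alternatives were other background, centring, filters, probes, spreads and arrays left out. A few genes that the rule would name are not reported here.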

Additional observations from a re-analysis of the deposited data

How the results depend on the processing

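*LOXL2* kept its direction and its call under all alternatives run, from -2.68 after subtraction of the other arrays to -2.40 with normexp and loess. Against 1051 genes lower and 1178 higher, normexp and loess gave 1856 higher, no filter on dim probes 3914 lower, the spread of the 3 arrays alone 2852 lower and 3021 higher, and subtraction of the other arrays 429 and 392. Leaving out 1 array gave 208 to 270 lower and 262 to 323 higher. Changed in all 3 were 34 lower and 30 higher with normexp and loess, 97 higher with both channels above background, and 53 and 63 after subtraction of the other arrays, where 12864 genes could be tested. The ranges without 1 array were 139 to 166 lower and 168 to 197 higher, and 223 of the 352 genes stayed in the set without each array in turn. Of the list members, 156 were called. This became 236 with no filter, 380 with the arrays' own spread, 78 after subtraction and 49 to 68 without 1 array. After subtraction, *TIGAR* (-0.26) turned its direction, and 38 of 101 named genes no longer passed. With normexp and loess 25 of 177 no longer passed, all in the same direction. The stretches of neighboring genes held 959 genes lower and 548 higher, against 1201 and 966 with windows of 15 genes and 928 and 428 with windows of 51. The counts outside the stretches were chosen after seeing the data. For changes not explained by fewer arrays or genes, the cause was not tested.

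Against the *DONSON* arrays, 517 genes were lower and 479 higher. With normexp and loess these were 870 and 741. Leaving out a *LOXL2* or *DONSON* array gave 66 to 651 lower and 91 to 554 higher. Replicate numbers do not pair the arrays of different cell lines: same-numbered arrays had correlations of their deviations of -0.02, -0.01 and -0.01. With the number as a replicate block, 195 genes were lower and 195 higher, against 715 and 633 in the same 6 arrays without it.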
